A study of Mus musculus with 24 samples.

Results

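The genes described here are 9 components of the tight junction that seals the outer layer of the mouse blastocyst, namely Cldn4, Cldn6, Cldn7, Tjp1, Ocln, F11r, Marveld2, Cgn and Pard6b. They were listed by name and found by gene symbol in the array's annotation, where each of the 9 had 1 probe set that carried no other symbol. They are 9 of 19938 named genes, and 8 of them were among the 13311 genes bright enough to be tested. The exception was Ocln. All 9 lie on autosomes.

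Gene expression was measured on 24 Affymetrix arrays, 1 for each pool of 3 whole blastocysts of 1 sex from 1 mother, collected on day 3.5 after mating. The parents were outbred NMRI mice. From 3 weeks of age they were fed for 9 weeks, either on a diet high in fat and calories or on the matching control diet, and at 12 weeks they were paired, with control diet for all animals while they mated. Embryos came from an obese father (high-fat diet) and a lean mother (control diet), from an obese mother and a lean father, or from 2 lean parents, and male and female embryos were kept apart, which gave 6 groups of 4 arrays. The study asked whether obesity of the father or of the mother alters the blastocyst transcriptome, and whether the sexes differ in this. There were 7 animals on the high-fat diet and 14 on the control diet, and the parents of each pool are not named in the labels, so pools may share a parent and the p-values measure the spread between pools. Trophectoderm and inner cell mass were not separated, and transcripts rather than proteins were measured.

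Tight junctions close the space between neighbouring epithelial cells. Claudins form the strands of the seal, occludin and tricellulin are further membrane proteins of it, and scaffold proteins beneath the membrane tie it to the actin cytoskeleton, while a polarity complex sets where along the cell side the junction forms. In the mouse embryo the seal matures in the trophectoderm, the first epithelium, and lets fluid gather in the blastocyst cavity.

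The 5′ flanks of 4 genes are shown because the results turn most often on them. Pard6b, Cldn4 and Marveld2 had the smallest p-values among the 8 tested genes in the comparison of obese-father with lean-parent males. Of the 8 tested members, Cgn was the 1 whose level correlated negatively with the signal spread of the arrays. The sequences are the 250 bases before the annotated start in RefSeq (GRCm38.p6), written 5′ to 3′ on the gene's strand. Capitals mark matches to the motifs searched.
Pard6b, chr2:168080754-168081003, plus strand: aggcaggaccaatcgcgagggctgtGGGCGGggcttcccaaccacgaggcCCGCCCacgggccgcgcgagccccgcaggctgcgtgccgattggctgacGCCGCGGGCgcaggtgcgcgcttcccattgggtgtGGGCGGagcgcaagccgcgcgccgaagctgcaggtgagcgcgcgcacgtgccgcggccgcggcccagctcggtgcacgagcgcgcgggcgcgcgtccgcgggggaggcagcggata
Cldn4, chr5:134946935-134947184, minus strand: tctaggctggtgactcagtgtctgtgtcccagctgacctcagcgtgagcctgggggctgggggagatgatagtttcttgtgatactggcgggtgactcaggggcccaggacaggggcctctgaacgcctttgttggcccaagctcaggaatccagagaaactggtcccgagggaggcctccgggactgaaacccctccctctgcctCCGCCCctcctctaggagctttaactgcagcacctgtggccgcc
Marveld2, chr13:100616945-100617194, minus strand: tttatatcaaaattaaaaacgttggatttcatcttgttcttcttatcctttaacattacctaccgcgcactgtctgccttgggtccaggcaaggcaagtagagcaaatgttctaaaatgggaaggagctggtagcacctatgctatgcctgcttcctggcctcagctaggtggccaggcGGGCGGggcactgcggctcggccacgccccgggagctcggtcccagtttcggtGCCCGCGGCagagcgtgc
Cgn, chr3:94786483-94786732, minus strand: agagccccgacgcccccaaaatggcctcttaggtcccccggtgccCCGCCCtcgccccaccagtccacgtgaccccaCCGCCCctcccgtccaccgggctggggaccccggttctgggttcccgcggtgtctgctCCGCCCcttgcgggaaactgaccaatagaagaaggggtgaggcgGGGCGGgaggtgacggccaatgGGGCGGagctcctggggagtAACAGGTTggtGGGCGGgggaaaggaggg

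All 9 genes were found in that promoter table, with 12 promoters between them. The motifs searched, on both strands, were GCCNNNGGC for the AP-2 family, to which the trophectoderm factor Tfap2c belongs, AACCNGTT for grainyhead-like factors, GGAATG for TEAD factors, GGGCGG for SP and KLF factors and TTTATNG for CDX factors. The AP-2 motif stood in the flanks of Pard6b (GCCGCGGGC, 151 to 143 bases before the start), Marveld2 (GCCCGCGGC, 18 to 10 bases before it) and Ocln (1 of its 2 starts), and 13.7% of 32851 promoters hold it. Marveld2 has a second annotated start, 27 bases further upstream, whose flank lacks that match. The grainyhead-like motif stood in the flank of Cgn, 29 to 22 bases before the start, and in 1.79% of all promoters. The SP and KLF motif was the commonest, in 32.7% of all promoters, and occurred 6 times in the Cgn flank, 3 times in that of Pard6b, and 1 time each in those of Cldn4 and Marveld2. A TEAD match was found for Cldn7 at 1 of its 2 starts, against 12.6% of all promoters, and a CDX match (9.81% of all promoters) was found for none of the 9 genes. The AP-2 and SP and KLF matches overlap in the Ocln flank. The share of G and C in the flanks shown was 77.6% in Pard6b, 70.4% in Cgn, 62.0% in Cldn4 and 55.2% in Marveld2, against a median of 52.4% over all promoters. The matches are of letters only, and binding was not measured.

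Levels are log2 intensities, and with 4 arrays a group their precision is low. Over the whole table the median was 2.56, and a gene was tested where at least 4 arrays exceeded it. The standard deviation of all values on 1 array, called its signal spread here, was widest at 1.81 in obese-father female pool 22 and 1.72 in obese-father male pool 12, and narrowest at 1.27 in lean-parent male pool 4. The 2 widest arrays stood apart, so results that rest on them are given with and without them. The trophectoderm keratins Krt8 and Krt18 and the factors Cdx2 and Gata3 exceeded the table median on 24 of 24 arrays, as did the inner cell mass factors Pou5f1 and Nanog and the primitive endoderm factors Gata6 and Sox17. Over whole marker lists, mean levels exceeded it for 16 of 20 trophectoderm, 14 of 14 inner cell mass and 13 of 13 primitive endoderm markers. In bulk samples like these, fewer cells of a type and less RNA per cell cannot be told apart.

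Among the claudins, Cldn4, which together with Cldn6 is needed for the mouse blastocyst cavity to form, averaged 4.96 ± 0.67 in males with obese fathers and 4.15 ± 0.29 in males with lean parents (SD, n = 4 each, as for all groups). Its other groups lay close together, at 4.43 ± 0.20 in obese-mother males, 4.42 ± 0.36 in obese-father females, 4.42 ± 0.14 in obese-mother females and 4.21 ± 0.39 in lean-parent females. The order of the groups below obese-father males was therefore not resolved, since neighbours differed by less than their spread. Cldn6 averaged 4.11 ± 0.72 in obese-father males, 3.50 ± 0.45 in obese-mother males and 3.30 ± 0.83 in lean-parent males. In females it averaged 4.08 ± 0.58 with obese fathers, 3.51 ± 0.43 with obese mothers and 3.88 ± 0.68 with lean parents. Neighbouring groups overlapped throughout, and its SD within groups was among the widest of the 9 genes. Cldn7, a claudin of many simple epithelia, stood at 4.86 ± 0.11 in obese-father males, 5.10 ± 0.29 in obese-mother males and 4.90 ± 0.28 in lean-parent males. In females it stood at 5.12 ± 1.11 with obese fathers, 4.65 ± 0.44 with obese mothers and 5.08 ± 0.46 with lean parents. The SD of 1.11 came with the 1 array of obese-father female pool 22, at 6.64.

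Of the other membrane proteins, F11r, the junctional adhesion molecule JAM-A, averaged 3.37 ± 0.88 in obese-father males, 2.95 ± 0.14 in obese-mother males and 3.05 ± 0.54 in lean-parent males. In females it averaged 2.92 ± 0.49 with obese fathers, 3.27 ± 0.61 with obese mothers and 3.13 ± 0.44 with lean parents, and all 6 groups overlapped. Marveld2, which encodes tricellulin, the protein of the corners where 3 cells meet, was highest in the offspring of obese fathers, at 3.23 ± 0.45 in males and 3.10 ± 0.47 in females. With obese mothers it stood at 2.71 ± 0.03 in males and 2.73 ± 0.13 in females, and with lean parents at 2.74 ± 0.23 in males and 2.60 ± 0.15 in females. Ocln, for occludin, lay below the table median on 24 of 24 arrays, between 1.35 and 2.21 with a mean of 1.66, and was left out of all tests. Its lowest group mean was 1.54 ± 0.20 in obese-mother males and its highest 1.79 ± 0.23 in lean-parent males, and the arrays of these groups overlapped. Differences in Ocln were thus not tested, and its low level is no statement that the transcript is absent.

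Of the proteins on the cytoplasmic side, Tjp1, the scaffold ZO-1, averaged 3.22 ± 0.24 in obese-father males, 3.02 ± 0.15 in obese-mother males and 3.23 ± 0.54 in lean-parent males. In females it averaged 3.64 ± 1.26 with obese fathers, 3.19 ± 0.17 with obese mothers and 3.05 ± 0.43 with lean parents, and the SD of 1.26 again came with pool 22, at 5.52. Cgn, for cingulin, which links the junction to actin, was highest at 3.41 ± 0.32 in obese-mother females and lowest at 3.08 ± 0.23 in lean-parent females. Pard6b, the PAR6 protein of the polarity complex with atypical protein kinase C, averaged 3.55 ± 0.23 in obese-father males, 3.12 ± 0.19 in obese-mother males and 2.94 ± 0.09 in lean-parent males. Its 3 female groups were nearly level, at 3.24 ± 0.37 with obese fathers, 3.25 ± 0.15 with obese mothers and 3.22 ± 0.29 with lean parents.

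**Figure D1:**
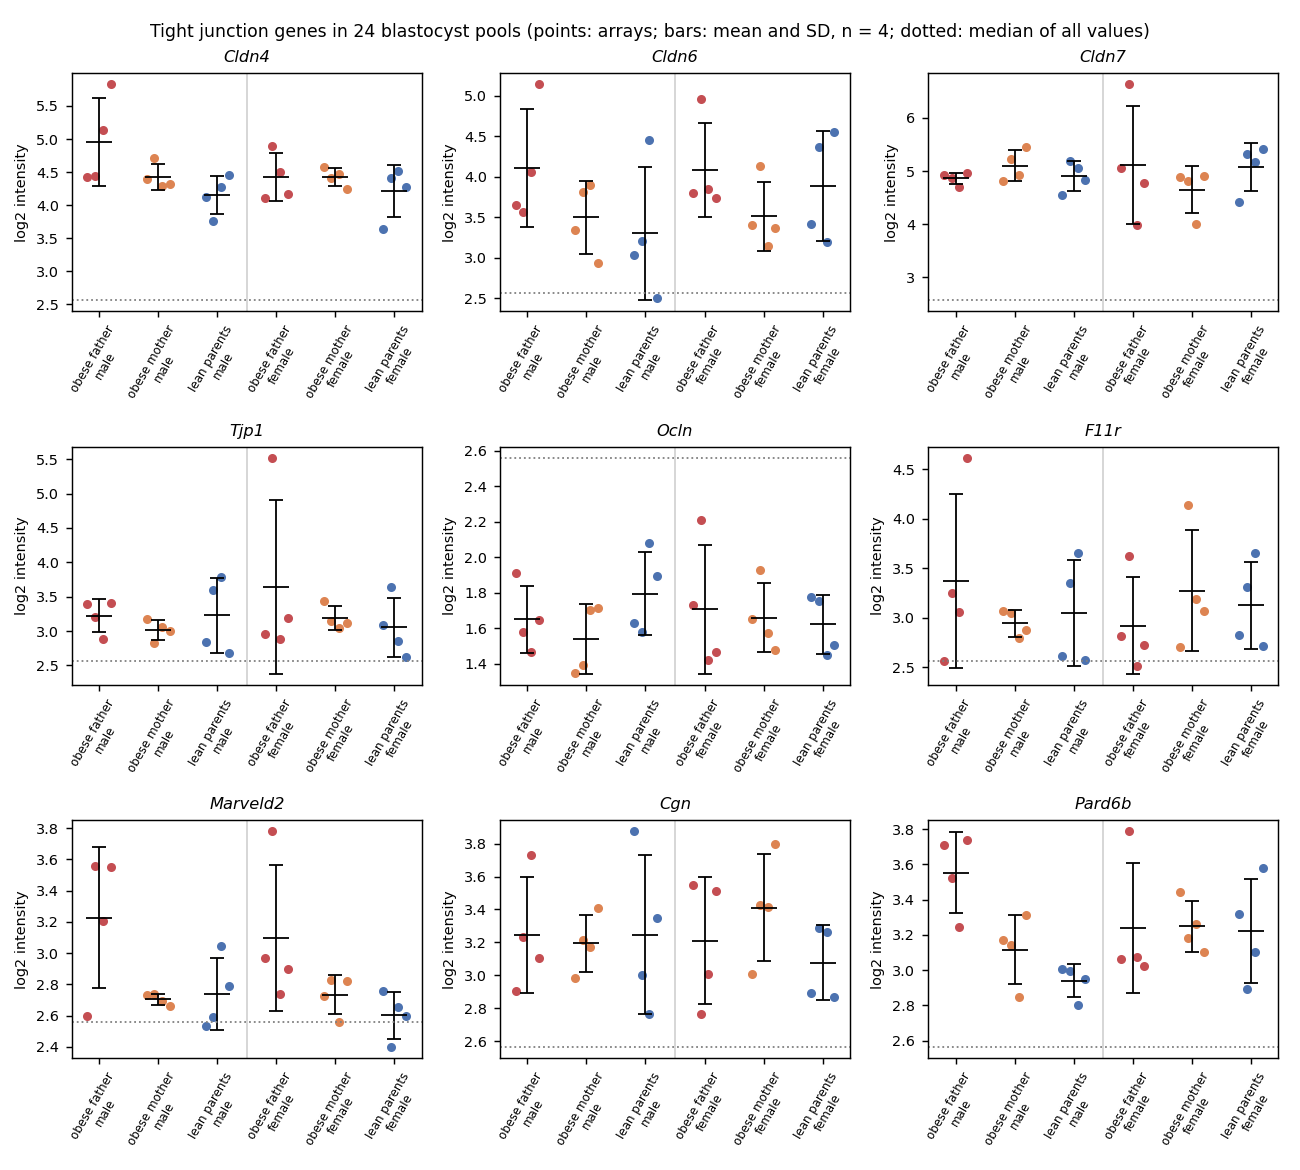
Log2 intensity of each of the 9 tight junction genes on every array (points, 4 per group), with group means and SD (bars), for obese-father, obese-mother and lean-parent males and then females; the dotted line is the table median of 2.56. Pard6b separates obese-father males from lean-parent males, Ocln lies below the dotted line on all arrays, and single high points of Tjp1 and Cldn7 belong to obese-father female pool 22.

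In males, the offspring of obese fathers had 3 tight junction transcripts with higher levels at an unadjusted p under 0.05 (Pard6b, Cldn4 and Marveld2), and none of the 8 tested passed after adjustment over all genes. Pard6b stood at 3.71, 3.52, 3.24 and 3.74 in the 4 obese-father male pools, against 3.01, 2.99, 2.80 and 2.95 in the 4 lean-parent male pools. Every obese-father pool exceeded every lean-parent pool, and Pard6b was the 1 member of 9 for which the groups did not overlap. Over all genes tested, 1.91% had all 4 obese-father pools above all 4 lean-parent pools and 6.63% had them all below. The log2 fold change of Pard6b was 0.61 (SE 0.17, 95% interval 0.26 to 0.97), with an unadjusted p of 0.00164 and a Benjamini-Hochberg adjusted p of 0.316 in limma.

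Cldn4 stood at 4.43, 4.45, 5.13 and 5.83 in obese-father male pools 9 to 12, and at 4.12, 3.77, 4.28 and 4.45 in lean-parent male pools 1 to 4. The lowest obese-father pools were level with the highest lean-parent pool, and pool 12 was the highest of all 24 arrays. Its log2 fold change was 0.81 (SE 0.26, 95% interval 0.27 to 1.34, unadjusted p = 0.00489, limma adjusted p = 0.316). Marveld2 stood at 2.60, 3.55, 3.20 and 3.55 in obese-father male pools and at 2.54, 2.59, 3.05 and 2.79 in lean-parent male pools. Of the obese-father pools, 3 lay above all lean-parent pools and 1 among them. Its log2 fold change was 0.49 (SE 0.20, 95% interval 0.06 to 0.91, unadjusted p = 0.0257, limma adjusted p = 0.316).

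Cldn6 stood at 3.65, 3.57, 4.06 and 5.14 in obese-father male pools and at 3.03, 3.21, 4.45 and 2.50 in lean-parent male pools. Although its log2 fold change of 0.81 equalled that of Cldn4, the lean-parent pools were widely scattered, and its SE was 0.41 and its unadjusted p 0.0648 (limma adjusted p = 0.348). F11r differed by 0.33 (SE 0.37, unadjusted p = 0.387), with pool 12 at 4.62 and the other obese-father male pools at 2.57 to 3.25. Cldn7 (-0.041), Tjp1 (-0.0055) and Cgn (-0.0047) had log2 fold changes near 0, but their 95% intervals were wide, at -0.79 to 0.71, -0.83 to 0.82 and -0.49 to 0.48, so differences of that size were not detectable here.

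Of the 8 genes, 5 had log2 fold changes above 0 in this comparison, against 33.3% of all genes tested, and their median was 0.41, against -0.11 over all genes. At an unadjusted p under 0.05, 3 of 8 were higher and 0 lower, while over all genes 4.3% were higher and 10.4% lower. After adjustment 0 of 8 were called, and 1 gene of 13311 (0.00751%) was called in all, which is not a tight junction gene.

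The obese-father male arrays also had a wider signal spread, 1.56 ± 0.11 against 1.38 ± 0.12 for males with lean parents (exact permutation test, two-sided, p = 0.114), and the smallest p this design allows is 0.0286. With array spread as a covariate in limma, the log2 fold change was 0.46 for Pard6b (unadjusted p = 0.0115, adjusted p = 0.526), 0.52 for Cldn4 (unadjusted p = 0.0404, adjusted p = 0.677) and 0.23 for Marveld2. In that fit Cldn6 was at 0.21 and F11r at -0.23, whereas Cldn7 (-0.65, unadjusted p = 0.0152) and Tjp1 (-0.63, unadjusted p = 0.0412) lay lower, so that 2 of 8 were higher and 2 lower at an unadjusted p under 0.05. The median over the 8 genes was then 0.20, and 7.18% of all genes had an unadjusted p under 0.05. Without obese-father male pool 12, Cldn4 stood 0.51 higher and Cldn6 0.46 higher, F11r was at -0.089, and Pard6b was still 0.55 higher, with an adjusted p of 0.727 for Cldn4 and Pard6b. In a fit without both arrays of the widest spread, Cldn4, Marveld2 and Pard6b were again at an unadjusted p under 0.05, 3 of 8 against 3.54% of all genes on the higher side, and the median of the 8 genes was 0.21.

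**Figure D2:**
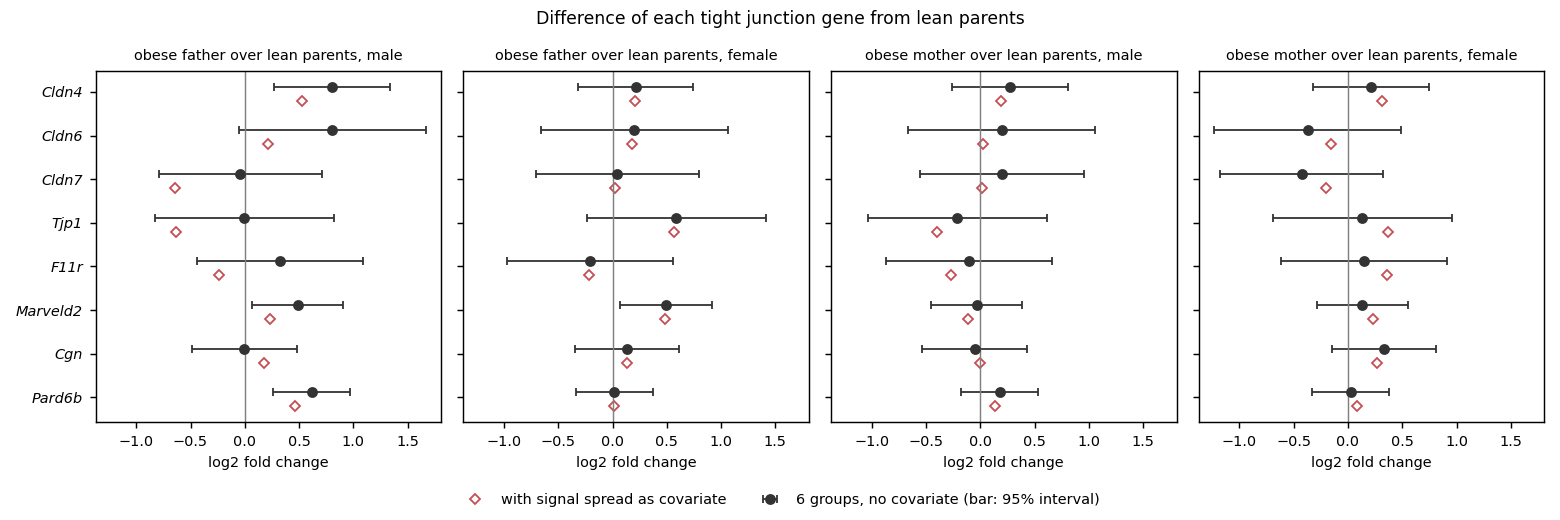
Log2 fold change of the 8 tested tight junction genes for each obese parent over lean parents, males and females in separate panels, with 95% intervals from limma (circles and lines); diamonds give the value when signal spread is a covariate. In obese-father males the intervals of Pard6b (0.26 to 0.97), Cldn4 (0.27 to 1.34) and Marveld2 (0.06 to 0.91) lie above 0, and in both obese-mother panels every interval includes 0.

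Marker lists of the cells a blastocyst pool could hold were set beside these values. Over all genes tested, 33.3% lay above 0 in this comparison of obese-father with lean-parent males, with a median of -0.11. Of 19 tested trophectoderm markers, which hold none of the 9 genes, 15 had a log2 fold change above 0 with a median of 0.28, and their mean level lay between 4.20 and 4.78 on obese-father male arrays and between 3.60 and 4.32 on lean-parent male arrays. Of 14 inner cell mass markers 7 were above 0 with a median of 0.11, and of 13 primitive endoderm markers 8 with a median of 0.12. Of 9 tested cumulus and granulosa cell markers, 0 were above 0 with a median of -0.34, and their mean level lay between 2.41 and 2.72 on obese-father male arrays and between 2.62 and 3.03 on lean-parent male arrays. Above 0 were 1 of 6 markers of uterine and oviduct epithelium, 0 of 5 of blood and 1 of 7 of sperm. The uterine marker Ltf exceeded the table median on 0 arrays, whereas the granulosa marker Amh and the sperm marker Prm1 did so on 24. By mean level, 4 of 13 named uterine and oviduct, 7 of 13 cumulus and granulosa, 3 of 10 blood and 6 of 8 sperm markers exceeded it. A level over the median is therefore not by itself a sign that a cell type was present. The marker values are given for all arrays and without the spread as a covariate, so the part of the signal spread in them was not tested. The part of the cell makeup in the values of the tight junction genes was not tested.

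In females, Marveld2 had the smallest p among the 8 genes, with 2.97, 3.78, 2.74 and 2.90 in obese-father female pools 21 to 24, against 2.76, 2.40, 2.66 and 2.60 in lean-parent female pools 13 to 16. All but 1 of the obese-father pools exceeded every lean-parent pool, and the exception, at 2.74, lay just under the highest of them. The log2 fold change was 0.49 (SE 0.20, 95% interval 0.07 to 0.92), with an unadjusted p of 0.0235 and a limma adjusted p of 1. It was 0.49 with the spread as a covariate (unadjusted p = 0.0062, adjusted p = 0.591) and 0.27 without pool 22.

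Tjp1 had the largest log2 fold change of the 8 in this comparison, 0.59 (SE 0.40, unadjusted p = 0.154). It stood at 2.96, 5.52, 2.88 and 3.19 in obese-father female pools and at 3.09, 3.64, 2.86 and 2.63 in lean-parent female pools. The difference rested on pool 22, without which it was -0.042. The same pool held the highest obese-father female value of Cldn4 (4.90), Cldn6 (4.95), Cldn7 (6.64), F11r (3.63) and Pard6b (3.79), and the lowest of Cgn (2.77). Without it the log2 fold change was -0.089 for Cldn6 (0.20 with it), -0.46 for Cldn7 (0.043 with it), -0.17 for Pard6b (0.015 with it) and -0.44 for F11r (-0.20 with it). Cldn4 was at 0.053 without it (0.21 with it), and Cgn at 0.28 without it (0.13 with it).

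Of the 8 genes 7 lay above 0 in females of obese fathers, against 54.9% of all genes, with a median of 0.17 against 0.021. Without the 2 arrays of the widest spread 3 of 8 lay above 0, with a median of -0.065. In that fit none of the 8 had an unadjusted p under 0.05, against 4.91% of all genes higher and 1.92% lower. With all arrays, only Marveld2 had an unadjusted p under 0.05 (1 of 8). The shares of all genes were 1.95% on the higher side and 0.886% on the lower side, and 0% were called. With the spread as a covariate 2 of 8 were at that level, Marveld2 and Tjp1 (0.57, unadjusted p = 0.0436, adjusted p = 0.691), against 7.1% of all genes. The signal spread was 1.47 ± 0.23 in obese-father females and 1.46 ± 0.08 in lean-parent females (exact permutation p = 0.971).

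The difference between the sexes in the obese-father effect was tested directly. For Pard6b it was 0.60 (SE 0.24), being 0.61 in males and 0.015 in females, with an unadjusted p of 0.0214 and a limma adjusted p of 0.654. For Cldn4 it was 0.59 (unadjusted p = 0.117, adjusted p = 0.657), or 0.30 without obese-father male pool 12, and for Marveld2 it was -0.0084 (unadjusted p = 0.977, adjusted p = 0.996). Of the 8 genes 1 was higher and 0 lower at an unadjusted p under 0.05, against 1.86% of all genes higher and 5.68% lower. With the spread as a covariate Pard6b was at 0.45 (unadjusted p = 0.058, limma adjusted p = 0.524). The 1 of 8 at an unadjusted p under 0.05 in that fit was Tjp1, against 9.88% of all genes. Tjp1 was then at -1.20 (unadjusted p = 0.00586, limma adjusted p = 0.293), and at -0.59 without the covariate (unadjusted p = 0.304). A difference between the sexes was thus not established for any of these genes. Averaged over both sexes, the obese-father effect was 0.49 for Marveld2 (SE 0.14, unadjusted p = 0.0025), 0.51 for Cldn4 (unadjusted p = 0.0105) and 0.31 for Pard6b (unadjusted p = 0.0163), each with a limma adjusted p of 0.623. These 3 of 8 stood against 2.81% of all genes on the higher side. Without the 2 arrays of the widest spread 1 of 8 (Marveld2) was at that level, against 1.42% of all genes higher and 1.59% lower.

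Among offspring of obese fathers, Cldn4 was 0.54 higher in males than in females (unadjusted p = 0.0489, limma adjusted p = 0.843), against 1.47% of all genes on the higher side and 3.94% on the lower side at an unadjusted p under 0.05. Without the 2 widest arrays Pard6b, and not Cldn4, was at that level, against 3.74% of all genes higher and 8.24% lower. With the spread as a covariate Cldn4 was at 0.40 (unadjusted p = 0.0895). In that fit Cldn7 (-0.56, unadjusted p = 0.0239, adjusted p = 0.411) and Tjp1 (-0.73, unadjusted p = 0.0141, adjusted p = 0.36) were lower in males. These 2 of 8 stood against 10% of all genes. With all arrays and no covariate, no other member reached that level between males and females of obese fathers. With obese mothers (1.41% of all genes in either direction) or lean parents (3.37%) 0 of 8 did so.

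Obesity of the mother was set against lean parents in the same way, with the same lean-parent arrays as the comparisons above. In males, Cldn4 had the largest log2 fold change and stood at 4.39, 4.72, 4.29 and 4.33 in obese-mother pools, against 4.12, 3.77, 4.28 and 4.45 in lean-parent pools. The groups overlapped, and the log2 fold change was 0.28 (SE 0.26, 95% interval -0.26 to 0.81, unadjusted p = 0.292). Pard6b stood at 3.17, 3.14, 2.85 and 3.31 in obese-mother male pools, and 3 of them exceeded all 4 lean-parent pools. Its log2 fold change was 0.18 (SE 0.17, unadjusted p = 0.309). Marveld2 stood at 2.73, 2.74, 2.69 and 2.66 in obese-mother male pools, the tightest group of the gene, and its log2 fold change was -0.034. The other genes lay between -0.21 for Tjp1 and 0.20 for Cldn7. Of the 8 genes 4 lay above 0, against 46.1% of all genes, with a median of 0.072 against -0.015, and 0 of 8 had an unadjusted p under 0.05, against 1.7% of all genes.

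In females, the log2 fold changes ran from -0.43 for Cldn7 (SE 0.36) to 0.33 for Cgn (SE 0.23). Cgn stood at 3.005, 3.43, 3.41 and 3.80 in obese-mother female pools, against 2.89, 3.29, 3.26 and 2.87 in lean-parent female pools. Thus 3 obese-mother pools exceeded all lean-parent pools, and the unadjusted p was 0.163. Cldn7 stood at 4.88, 4.81, 3.99 and 4.91 in obese-mother female pools and at 4.41, 5.32, 5.17 and 5.41 in lean-parent female pools, with an unadjusted p of 0.253. Without obese-mother female pool 19, the lowest of them, its log2 fold change was -0.21, and without pool 20 that of Cgn was 0.21. Cldn6 was at -0.37 (SE 0.41), and Pard6b at 0.025 (SE 0.17). Of the 8 genes 6 lay above 0, against 61.7% of all genes, with a median of 0.13 against 0.048, and 0 of 8 had an unadjusted p under 0.05, against 2.19% of all genes. No gene of the table was called in either obese-mother comparison with limma (0% of all genes).

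Males of obese mothers were also set against males of obese fathers. Marveld2 was at -0.52 (SE 0.20, unadjusted p = 0.0179) and Pard6b at -0.44 (SE 0.17, unadjusted p = 0.0182), both lower in males of obese mothers, with Cldn4 at -0.53 (SE 0.26, unadjusted p = 0.0521), and the limma adjusted p was 0.573 for each. For Pard6b the obese-mother pools, at 2.85 to 3.31, overlapped the obese-father pools, at 3.24 to 3.74, by 1 pool on each side. Thus 2 of 8 genes were lower and 0 higher at an unadjusted p under 0.05, against 2.08% of all genes lower and 6.27% higher. After adjustment 0 of 8 were called, as against 1 gene of 13311 (0.00751%) in all. With the spread as a covariate Marveld2 was at -0.34 (unadjusted p = 0.0564), Pard6b at -0.33 (unadjusted p = 0.0512) and Cldn4 at -0.33 (unadjusted p = 0.163). The 1 gene of 8 at an unadjusted p under 0.05 in that fit was Cldn7, higher in males of obese mothers at 0.67 (unadjusted p = 0.0096, adjusted p = 0.853), while 5.65% of all genes were at that level. Without obese-father male pool 12, Cldn4 was at -0.24, Marveld2 at -0.41 and Pard6b at -0.37. In this comparison 5 of 19 trophectoderm markers lay above 0 with a median of -0.25, and their mean level lay between 3.80 and 4.31 on obese-mother male arrays and between 4.20 and 4.78 on obese-father male arrays. Of the cumulus and granulosa cell markers 8 of 9 lay above 0, with a median of 0.28, and their mean level lay between 2.67 and 2.95 on obese-mother male arrays and between 2.41 and 2.72 on obese-father male arrays. Over all genes tested the median was 0.091. The signal spread was 1.43 ± 0.10 in obese-mother males and 1.56 ± 0.11 in obese-father males. The marker values are given for all arrays and without the spread as a covariate. The part of the spread in the marker values, and of the cell makeup in the tight junction values, was not tested.

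Across the 24 arrays, levels of 7 of the 8 genes followed the signal spread of the array, and Cgn ran the other way. Pearson's r with the spread was 0.73 for Cldn6, 0.70 for Cldn7, 0.67 for F11r, 0.65 for Tjp1, 0.65 for Marveld2, 0.60 for Cldn4 and 0.57 for Pard6b, with permutation p from 3e-05 to 0.0035 and adjusted p from 0.00024 to 0.0040 over these 8 relations. Spearman's rho was 0.60 for Cldn6, 0.64 for Cldn7 and 0.61 for F11r (permutation p = 0.0025, 0.0011 and 0.0021, adjusted p = 0.0066 each). It was 0.46 for Cldn4, 0.41 for Tjp1, 0.35 for Pard6b and 0.33 for Marveld2, where the permutation p ran from 0.0243 to 0.115. For Cgn r was -0.38 (permutation p = 0.0658) and rho -0.34 (permutation p = 0.0997).

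Without the 2 arrays of the widest spread, which are also the farthest from the median spread, r was 0.51 to 0.58 for Cldn6, Cldn7 and F11r, but 0.33 for Cldn4, 0.29 for Tjp1, 0.25 for Pard6b and 0.23 for Marveld2, and for Cgn -0.24. For Cldn4, Tjp1, Pard6b and Marveld2 the relation therefore rested largely on those arrays. Over all genes tested the median r was -0.42, and 17.5% of genes had an r over 0.5, as 7 of the 8 tight junction genes did. The spread is computed from the same table as the levels, and both of the widest arrays are of obese fathers, so the relation is a description. The permutations also shuffled arrays across the 6 groups. Their p-values are therefore no evidence of a relation particular to these genes.

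**Figure D3:**
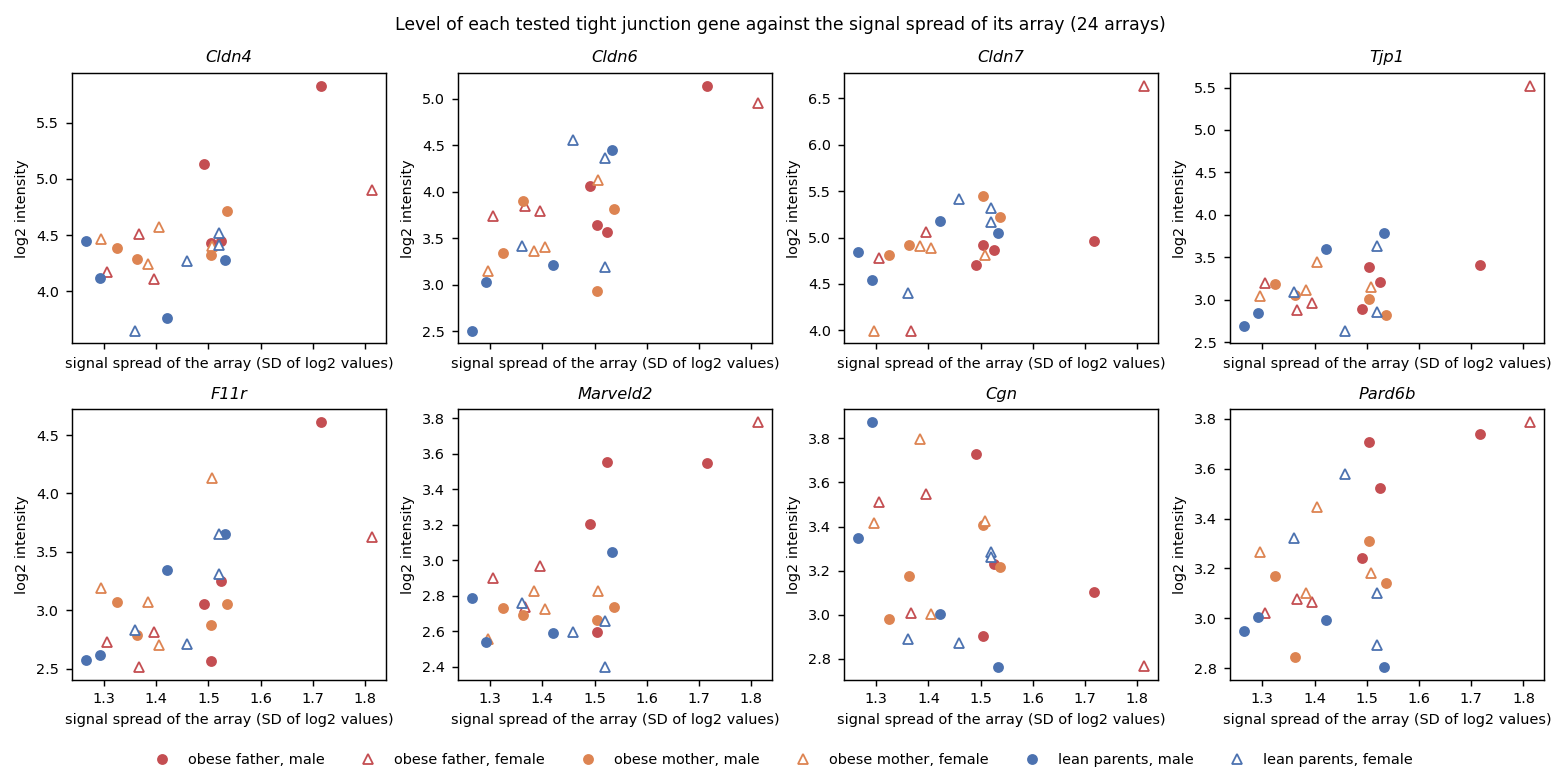
Log2 intensity of each of the 8 tested tight junction genes against the signal spread of the array (SD of all log2 values), 1 point per array, with the 6 groups by colour and shape. The 2 points at the far right are obese-father female pool 22 (1.81) and obese-father male pool 12 (1.72), and levels of all genes but Cgn tend upward with the spread.

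The genes also varied together. With the group means taken out, the 28 pairs had a median r of 0.40 over the 24 arrays, from -0.53 to 0.73, and 9 pairs exceeded 0.5. When the signal spread was taken out as well, the median was 0.065, the range -0.44 to 0.31, and 0 pairs exceeded 0.5. These pairs share arrays and genes, and the values are given as a description. Pairs among other genes were not summarised, so no trait particular to these genes is shown.

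**Figure D4:**
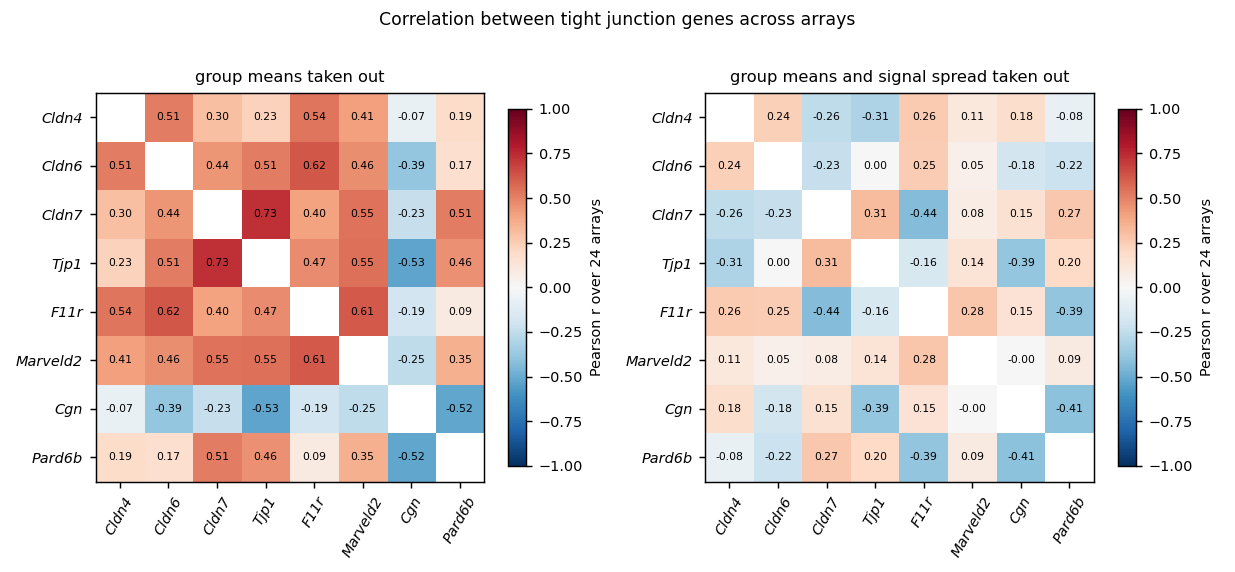
Pearson's r between each pair of the 8 tested tight junction genes over 24 arrays, after group means were taken out (left) and after group means and the array's signal spread were taken out (right). The median over 28 pairs is 0.40 on the left and 0.065 on the right.

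By the rule of highest Pearson's r over the 24 arrays, the gene most like each member was sought after group means and spread had been taken out. It was Syap1 for Tjp1 (r = 0.89), Zdhhc17 for Pard6b (0.85), P4hb for Marveld2 (0.84) and Cep295nl for Cldn7 (0.80). For the rest it was Pkp3, the desmosomal protein plakophilin 3, for Cldn4 (0.79), Aym1 for F11r (0.79), Srp14 for Cgn (0.79) and Hic2 for Cldn6 (0.75). Each is the maximum over all genes tested, which is high by construction. In the values as deposited r was 0.90 for Marveld2, 0.84 for Tjp1, 0.83 for Pard6b and 0.49 for F11r with the same partners. It was slightly negative for Cldn4 (-0.14), Cldn6 (-0.12), Cldn7 (-0.15) and Cgn (-0.20). The measured levels of these last genes therefore did not rise and fall with their partners. For the mean of the 8 genes, the most alike were Esf1 (0.92), Hpf1 (0.91), Nsfl1c (0.91), Capns1 (0.91) and Ipo5 (0.91) in the values as deposited, and these followed the spread themselves, with r of 0.83 to 0.89. After spread and group means were taken out they were Trpc4ap (0.83), Celsr1 (0.81), H13 (0.78), Atic (0.76) and Lrpap1 (0.75).

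A wider list of 48 further tight junction and polarity genes was examined beside the 9, of which 46 were named on the array and 34 bright enough to be tested. In obese-father against lean-parent males, 11 of 34 lay above 0 with a median of -0.11, equal to the median over all genes, while the 8 members had a median of 0.41. At an unadjusted p under 0.05, 1 of 34 was higher and 3 were lower, against 4.3% of all genes higher and 10.4% lower, and 0 were called. The wider list thus did not stand out from all genes. The higher one was Cdc42, the small GTPase that binds PAR6 proteins, which stood at 8.72, 7.91, 8.13 and 8.73 in obese-father male pools and at 5.53, 7.65, 7.77 and 4.19 in lean-parent male pools. The groups did not overlap, as in 1.91% of all genes on the higher side. The 2 lowest values were those of lean-parent male pools 1 and 4, whose signal spreads of 1.29 and 1.27 were narrow. The log2 fold change was 2.09 (SE 0.74, unadjusted p = 0.0105, limma adjusted p = 0.316).

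The lower ones were Pard3b, a relative of the polarity scaffold PAR3, at -0.44 (unadjusted p = 0.0146), Cldn34c4 at -0.43 (unadjusted p = 0.0212) and Prkcz, an atypical protein kinase C, at -0.40 (unadjusted p = 0.0463). Pard3b stood at 2.42, 2.33, 2.51 and 2.41 in obese-father male pools, against 2.74, 2.89, 2.99 and 2.80 in lean-parent male pools. There was no overlap, as in 6.63% of all genes on the lower side, and most of these levels lie close to the table median. The value of Cldn34c4 is uncertain because its symbol is shared with further probe sets that carry several symbols. Next to Cdc42 on the higher side stood Lin7c, of the Crumbs complex (1.02, SE 0.52), and Prkci, the other atypical protein kinase C (0.70, SE 0.51), and neither had an unadjusted p under 0.05.

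In the other 3 comparisons of an obese parent with lean parents, split by sex, the wider list had 0 of 34 genes at an unadjusted p under 0.05. Over all genes the share was 2.84% in females of obese fathers, and 1.7% in males and 2.19% in females of obese mothers. In females of obese fathers its median was 0.0022 with 17 above 0, and the genes with the smallest p were Pard6a (0.25), the tricellular receptor Lsr (-0.26), Jam2 (-0.23) and Mpp5 (0.27). In males of obese mothers the median was -0.030 with 14 above 0, led by Pard3b (-0.34, unadjusted p = 0.0533) and Cldn34c4 (-0.29). In females of obese mothers it was 0.012 with 19 above 0, led by Lsr (-0.37, unadjusted p = 0.0721) and the angiomotin gene Amot (0.28).

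**Figure D5:**
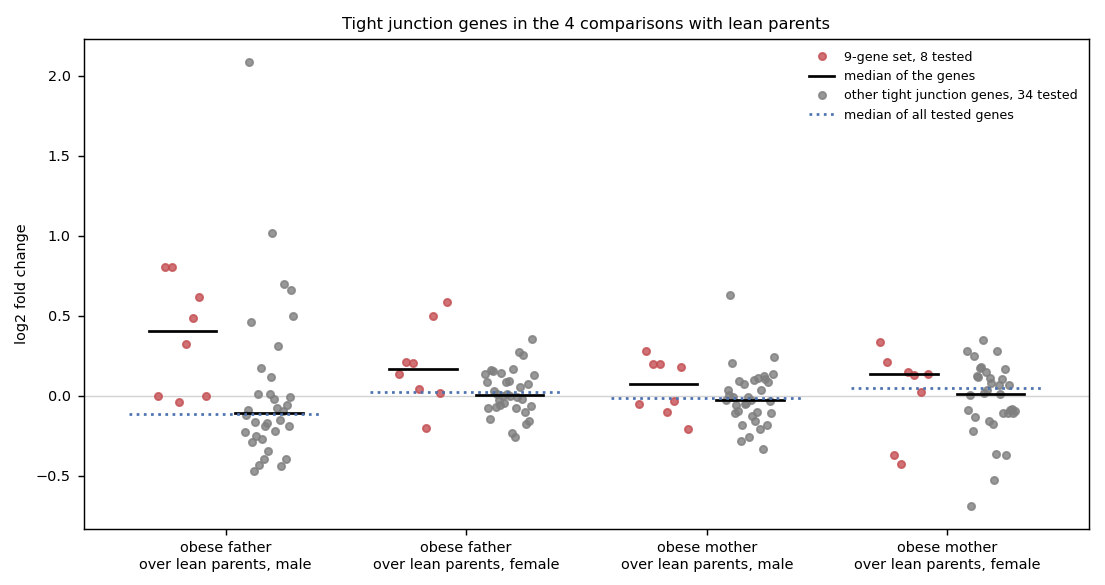
Log2 fold changes of the 8 tested tight junction genes and of 34 other tight junction and polarity genes (points) for each obese parent over lean parents by sex, with the median of each set (bars) and of all genes tested (dotted). In obese-father males the medians are 0.41 for the 8 genes and -0.11 for both the wider list and all genes.

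Among 18 tested transcription factors known to act on junction genes, 7 lay above 0 in obese-father against lean-parent males, with a median of -0.11, and 0 were called. At an unadjusted p under 0.05, 0 were higher and 1 (Ehf) lower, against 4.3% of all genes higher and 10.4% lower. Of these factors Cdx2, Gata3, Tfap2c and Tead4 are also on the trophectoderm list. Ehf, an epithelial ETS factor, stood at 2.32, 2.23, 2.22 and 2.21 in obese-father male pools and at 2.78, 2.60, 2.44 and 2.62 in lean-parent male pools. The groups did not overlap, as in 6.63% of all genes on the lower side, but all obese-father values lay below the table median. The log2 fold change was -0.36 (unadjusted p = 0.0331, limma adjusted p = 0.322). Its relative Elf3 was at 0.44 (unadjusted p = 0.1), with pool 12 at 4.63 and the other obese-father male pools at 3.29 to 3.45. In the other 3 comparisons with lean parents 0 of 18 had an unadjusted p under 0.05, against 1.7% to 2.84% of all genes.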

How the data were processed

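Each of 24 samples was 1 array hybridised with cDNA amplified directly from blastocyst lysate. The authors deposited 1 log2 intensity for each probe set and array, and the submitters' processing notes name RMA and the affy package. Their versions, the definition of the probe sets and the build are details not given in the sources used here. In the table there were 35556 probe sets, with 0 missing values and 0 columns of other samples. Through the platform annotation 21789 probe sets had 1 symbol, 1621 several and 12146 none, and only the first kind was named. The probe set with the highest mean stood for a gene. Genes over the table median on at least 4 arrays were tested.

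Groups came from the labels. A mean per group was fitted to all 24 arrays with limma 3.58.1 (lmFit, eBayes) in R 4.3.3, and contrasts were called at a Benjamini-Hochberg adjusted p under 0.05 over all tested genes. Array spread was compared by exact permutation of 4 against 4 arrays, and correlations by 100000 permutations. The fitting code was tested on simulated data, with 200 changed genes in obese-father against lean-parent males in each of 10 runs. It recovered 10.6% of log2 changes of 0.5, 76.3% of those of 1 and 92.9% of those of 2. Most changes near 0.5 would thus be missed, and a count of 0 called does not exclude them. The shares hold for 200 changed genes in a run. In the data 1 gene was called in this comparison. Cdc42, at a log2 fold change of 2.09, was not called (limma adjusted p = 0.316). Changes of 1 or 2 in single genes could therefore be missed as well. Alternatives were a robust prior with trend, array weights, centred or quantile-normalized arrays, array spread as a covariate, averaged probe sets, other filters on dim genes, a call threshold of 0.10, fits to the compared groups, and fits without single arrays or without the 2 widest. Matches to motifs were counted with Python 3.11.15. From the wider and regulator lists, the genes with the smallest unadjusted p in each comparison were named (up to 4 and 2 per comparison). Lin7c and Prkci were chosen after their values were seen. The 9 genes, the lists and the alternatives were chosen with earlier results of these data known.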

Additional observations from a re-analysis of the deposited data

Results flagged for a closer look

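In 54 sets of 4 arrays (9 genes in 6 groups), 4 held a value whose gap to its nearest neighbour, as a share of the set's range, exceeded the 95% critical value of Dixon's test. Chance alone gives such a value at a rate of about 0.05 per set. In obese-father female pool 22, Cldn6 was at 4.95 (gap over range 0.907), Tjp1 at 5.52 (0.881) and Pard6b at 3.79 (0.927), each far above the other 3 pools. This array also had the widest signal spread of all, 1.81. In obese-mother female pool 19, Cldn7 was at 3.99 (0.889), below the other 3 pools of 4.81 to 4.91, and that array had a spread of 1.30.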

How the results depend on the processing

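No tight junction gene was called under any of 11 alternative settings. Of 462 recomputed member values 28 changed sign, mostly values near 0, and for these the cause was not tested. All 28 fell under array weights, centring, quantile normalization, the spread covariate or the fit without the 2 widest arrays. The filters, threshold, prior, averaged probe sets and fits to the compared groups cannot change a log2 fold change of these genes. Their part of the 462 is therefore no measure of stability. In males of obese fathers against lean parents, Tjp1 turned to 0.012 with array weights, 0.078 with arrays centred and 0.049 with quantile normalization. Cgn turned to 0.079 with centring, 0.011 with quantile normalization, 0.18 with the spread covariate and 0.042 without the 2 widest arrays. Cldn7 turned to 0.043 with centring, and F11r to -0.23 with the spread covariate and -0.089 without the 2 widest arrays. In females of obese fathers, Cldn6 was -0.19 with array weights and -0.089 without the 2 widest arrays, and Cldn7 was -0.49, -0.46 and, with quantile normalization, -0.055. Pard6b was -0.18 with array weights, -0.050 with quantile normalization and -0.17 without the 2 widest arrays, where Tjp1 was -0.042. In males of obese mothers, Marveld2 was 0.0024 with array weights and Cgn 0.0025 with the spread covariate. In females of obese mothers, Pard6b was -0.0082 with array weights, -0.021 with centring and -0.0086 with quantile normalization. The sex difference of the obese-father effect on Marveld2 turned to 0.15, 0.070, 0.10 and 0.11 with array weights, centring, quantile normalization and without the 2 widest arrays.

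Over all genes, the count called was 1 in obese-father against lean-parent males, and became 0 with the stricter filter or with these groups alone, and 2 with array weights or the spread covariate. It was 1 in obese-mother against obese-father males, and became 2 with array weights and 0 with the stricter filter, the spread covariate, these groups alone or without the 2 widest arrays. It was 1 between males and females of obese fathers, and became 4 with the spread covariate and 0 with the stricter filter, centring or these groups alone. It was 0 for the sex difference of the obese-father effect and 2 with the spread covariate. The stricter filter and the smaller fits test fewer genes or arrays.

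Leaving out 1 array at a time, the ranges in males of obese fathers were 0.51 to 0.98 for Cldn4, 0.46 to 1.19 for Cldn6, 0.38 to 0.70 for Marveld2, 0.55 to 0.72 for Pard6b, -0.089 to 0.59 for F11r, -0.16 to 0.052 for Cldn7, -0.19 to 0.18 for Tjp1 and -0.17 to 0.20 for Cgn. In females of obese fathers they were -0.089 to 0.43 for Cldn6, -0.46 to 0.42 for Cldn7, -0.17 to 0.13 for Pard6b and -0.042 to 0.84 for Tjp1. In males of obese mothers they were -0.067 to 0.58 for Cldn6, -0.26 to 0.10 for F11r, -0.10 to 0.068 for Marveld2 and -0.21 to 0.16 for Cgn. In females of obese mothers they were -0.14 to 0.34 for F11r, -0.085 to 0.14 for Pard6b and -0.0086 to 0.33 for Tjp1. The sex difference for Marveld2 ran from -0.13 to 0.22. The count called ran from 0 to 2 for males of obese fathers against lean parents and obese-mother against obese-father males, and from 0 to 1 for obese-father against lean-parent females, for both sexes together, for obese-mother against obese-father females and between the sexes with obese fathers. Over all alternatives the limma adjusted p in obese-father males was 0.156 to 0.727 for Pard6b, 0.168 to 0.727 for Cldn4 and 0.178 to 0.83 for Marveld2. No paired analysis was possible because the array numbers in the labels are each used once, so no groups share a number. Those numbers run by group, and number order and group cannot be told apart.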
